A study of Mus musculus with 2 samples.

Results

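The 10 genes described here encode the main enzymes and carriers with which cells remove superoxide and peroxides: Sod1, Sod2, Cat, Gpx1, Gpx4, Prdx1, Prdx5, Txn1, Txnrd1 and Gclm. They were chosen by name, with earlier results of these data known. All 10 were found among the 22020 gene symbols of the deposited table. Where a symbol had several transcripts, the most abundant by its mean over both libraries was used. Their RNA was measured in LSK cells, a sorted bone marrow fraction that lacks lineage markers, carries c-Kit and Sca-1, and holds the stem cells and earliest multipotent progenitors of the blood. There was 1 library of p53 KO cells and 1 of Utx/p53 DKO (double knockout) cells, both from C57BL/6 mice 8 weeks old. By their genotype labels both were knocked out for the tumour suppressor p53 (Trp53), and the DKO cells in addition for Utx (Kdm6a), an X-linked demethylase of histone H3 lysine 27. The title of the p53 KO library also calls it "WT-LSK", which is read here as intact for Utx. The deleted exons, any Cre driver and the number of mice behind each library are not given in the sources used here.

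Superoxide leaking from respiration is turned into hydrogen peroxide by superoxide dismutases, SOD1 in the cytosol and SOD2 in the mitochondrial matrix. Hydrogen peroxide is then destroyed by catalase in peroxisomes, by glutathione peroxidases and by peroxiredoxins. Glutathione peroxidases draw on glutathione, whose synthesis is limited by the ligase that Gclm helps to form. Most peroxiredoxins draw on thioredoxin (Txn1), which thioredoxin reductase (Txnrd1) recharges with NADPH. Blood stem cells keep their reactive oxygen low, and loss of that control drives them out of quiescence.

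With 1 library per genotype no test was possible. Every difference below describes these 2 libraries, has no replicate check, and carries at most a 95% interval of counting error. The libraries held 17088105 (p53 KO) and 19926294 (DKO) reads. Values are RPKM, read numbers corrected for how long a transcript is and how deeply its library was read, and they are given with the p53 KO library first. Differences are DKO minus p53 KO on the log2(RPKM + 1) scale, and 2-fold or more on that scale is called higher or lower. Among all 11356 genes that averaged 1 RPKM or more, 6.60% were higher and 13.5% were lower by this rule. The targeted gene Kdm6a was at 5.32 against 1.26 RPKM, and Trp53 RNA was found in each library, at 19.4 against 12.9 RPKM, which does not check the p53 label without the deleted exons. Of the genes of the sort gate, Ly6a (Sca-1) was at 255 against 281 RPKM and Kit at 64.2 against 16.0 RPKM, so RNA of both gate markers was found in each library.

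All 10 genes passed the filter on low values. By the 2-fold rule 4 were higher in the DKO library, Prdx5, Gpx1, Gpx4 and Txn1, beside 6.60% of all genes. None was lower by that rule, beside 13.5% of all genes, and 6 lay within 2-fold. After scaling to equal sums of RPKM the calls were 2 higher (Prdx5 and Gpx1) and 2 lower (Cat at -1.22 and Txnrd1 at -1.11), while Gpx4 (0.82) and Txn1 (0.73) fell short of 2-fold. The median difference of the 10 was 0.27, with a range from -0.86 for Cat to 2.95 for Prdx5. The median over all genes was -0.24, so the 10 had a median of 0.51 relative to all genes. Of the 10 genes, 7 lay above the all-gene median. Each of 5 other scalings of the libraries moves all 10 differences by nearly the same amount. Their order was thus kept by construction, which tests nothing, whereas their distance from 0 changed.

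**Figure D1:**
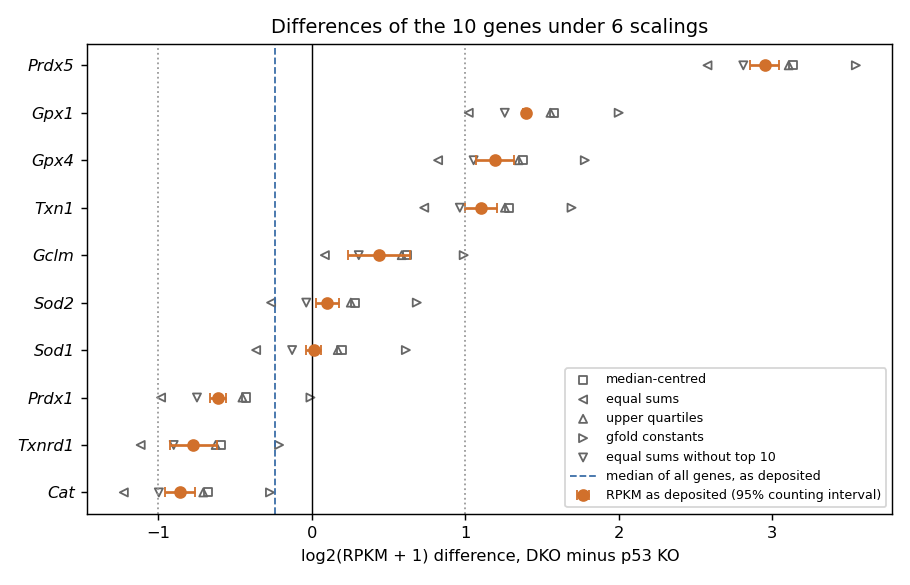
Differences of the 10 genes, DKO minus p53 KO, on the log2(RPKM + 1) scale. Filled points are the deposited RPKM with 95% counting intervals, open symbols are 5 other scalings, dotted lines mark 2-fold and the dashed line is the all-gene median of -0.24. Prdx5 lies at 2.95 and Cat at -0.86, and a change of scaling slides all genes together.

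Gpx1 had the highest level of the 10 in both libraries. In p53 KO cells the order of levels was Gpx1 (1760.0 RPKM), Sod1 (573), Prdx1 (286), Prdx5 (87.6), Txn1 (57.2), Cat (50.4), Gpx4 (45.5), Sod2 (38.1), Txnrd1 (15.5) and Gclm (13.5). The counting intervals of Cat (48.3 to 52.5 RPKM) and Gpx4 (42.2 to 48.9) overlapped there, as did those of Txnrd1 (14.5 to 16.6) and Gclm (12.1 to 15.0). The other neighbours with recovered reads did not overlap. In DKO cells Prdx5 (684 RPKM) stood second, above Sod1 (578) and Prdx1 (187). Txn1 (124), Gpx4 (105), Sod2 (41.0), Cat (27.3), Gclm (18.6) and Txnrd1 (8.69) followed, with no overlap between neighbours. The 10 genes together made up 0.811% of all RPKM of the p53 KO cells and 1.37% of those of the DKO cells. Gpx1 alone was 60.1% of the sum of the 10 in p53 KO and 72.3% in DKO cells.

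**Figure D2:**
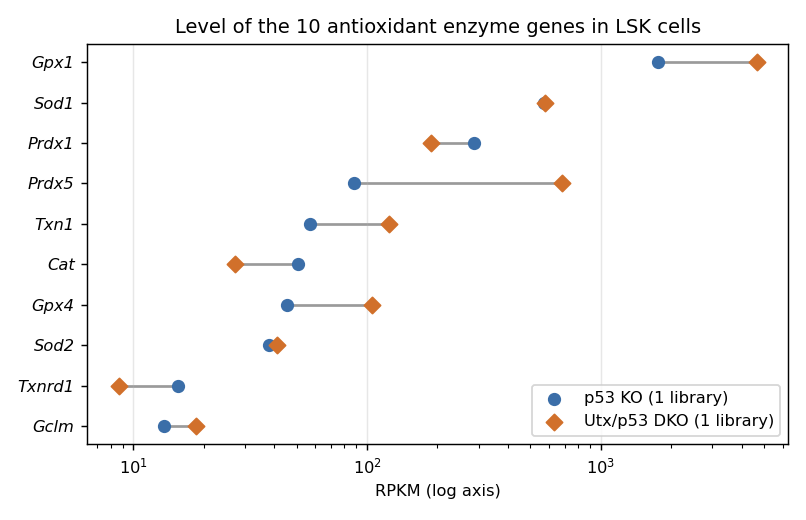
Level of each of the 10 genes in RPKM on a log axis, with a circle for the p53 KO library and a diamond for the Utx/p53 DKO library. Prdx5 passes from 87.6 to 684 RPKM, while both symbols of Sod1 coincide near 573 and 578 RPKM.

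Several genes of this system are textbook targets of NRF2, a factor that binds the antioxidant response element in promoters. The element's core, TGACNNNGC on either strand, was searched in the 250 bases before each start in RefSeq promoters of the build GRCm38.p6. All 10 genes matched that table, with 15 promoters in all. Of the 10 genes, 9 had at least 1 promoter richer in G and C than the median of all promoters, 52.4%. The shares given here are not matched for that. The core stood before 4 of the 10 genes, in 4 of these 15 promoters and in 10.2% of all 32851 promoters. Those 4 windows are printed 5′ to 3′ on the gene's strand, with the core in capitals, to show where the element's letters lie in members that lay within 2-fold. In each of the 4 the core is on the opposite strand. It begins 133 bases before the start in Prdx1, 92 in the second listed promoter of Txnrd1, 134 in Gclm and 56 in Sod1. The Prdx1 match reads TGACTCAGC, letters found in 0.390% of all promoters. These letters were not among the planned motifs and equal the Prdx1 match itself, so that share tests nothing about Prdx1. The window of Prdx5, the gene that differed most, is printed beside them and holds no match.
Prdx1, chr4:116685349-116685598, + strand: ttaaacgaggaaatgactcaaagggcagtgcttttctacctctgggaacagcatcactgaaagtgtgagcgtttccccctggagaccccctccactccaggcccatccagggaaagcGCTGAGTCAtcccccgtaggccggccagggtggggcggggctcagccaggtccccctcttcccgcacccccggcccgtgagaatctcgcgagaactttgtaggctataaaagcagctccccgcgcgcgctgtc
Txnrd1, chr10:82858956-82859205, + strand: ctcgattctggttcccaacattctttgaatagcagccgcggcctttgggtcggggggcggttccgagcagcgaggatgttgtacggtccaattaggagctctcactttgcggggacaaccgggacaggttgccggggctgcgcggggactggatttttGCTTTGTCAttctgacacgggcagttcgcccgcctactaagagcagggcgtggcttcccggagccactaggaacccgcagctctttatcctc
Gclm, chr3:122245307-122245556, + strand: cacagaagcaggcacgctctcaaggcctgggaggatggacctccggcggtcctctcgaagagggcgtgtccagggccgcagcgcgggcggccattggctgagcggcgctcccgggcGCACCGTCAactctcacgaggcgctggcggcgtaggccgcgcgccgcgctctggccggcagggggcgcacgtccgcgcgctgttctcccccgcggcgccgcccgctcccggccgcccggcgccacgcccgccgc
Sod1, chr16:90220512-90220761, + strand: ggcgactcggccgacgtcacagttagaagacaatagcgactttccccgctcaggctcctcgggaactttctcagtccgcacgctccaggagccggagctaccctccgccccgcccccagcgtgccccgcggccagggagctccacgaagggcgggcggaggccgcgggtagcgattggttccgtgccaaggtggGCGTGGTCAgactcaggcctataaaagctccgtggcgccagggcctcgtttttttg
Prdx5, chr19:6910107-6910356, - strand: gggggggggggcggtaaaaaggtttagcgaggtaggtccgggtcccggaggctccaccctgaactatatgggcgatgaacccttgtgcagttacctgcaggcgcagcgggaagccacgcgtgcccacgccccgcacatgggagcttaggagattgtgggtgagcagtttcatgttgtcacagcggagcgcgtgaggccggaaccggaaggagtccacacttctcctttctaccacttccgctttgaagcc
The 4 genes with the core had differences of -0.61 (Prdx1), -0.77 (Txnrd1), 0.44 (Gclm) and 0.01 (Sod1). The 4 genes that were at least 2-fold higher, Prdx5, Gpx1, Gpx4 and Txn1, had no match in these windows. A core of FOXO binding, GTAAACA, was found in 3.17% of all promoters and before none of the 10 genes. A match is a run of letters and not a measured binding site, and no match says nothing of sites elsewhere.

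The superoxide dismutases were nearly level between the genotypes. Sod1, the copper and zinc enzyme of the cytosol, had 6344 reads in p53 KO and 7461 in DKO cells, at 573 against 578 RPKM, a ratio of 1.01 (95% interval 0.975 to 1.04). Sod2, the manganese enzyme of mitochondria, was at 38.1 against 41.0 RPKM, from 2491 and 3121 reads, a ratio of 1.07 (95% interval 1.02 to 1.13). The log2 differences were 0.01 and 0.10, and their sign depended on the scaling: they were -0.36 and -0.26 after scaling to equal sums of RPKM, but 0.61 and 0.68 with the normalization constants of gfold, the authors' program. Within each library, which no scaling can alter, there was 15.0 times as much Sod1 as Sod2 in p53 KO and 14.1 times in DKO cells. Sod3, the secreted enzyme, was at 0.0572 RPKM in p53 KO cells and listed at 0 in DKO cells. Ccs, the copper chaperone that loads SOD1, was at 25.1 against 27.7 RPKM. The antisense neighbour Scaf4, which overlaps the Sod1 gene in the annotation, was at 4.72 against 3.60 RPKM.

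Among the glutathione peroxidases, the selenium enzymes Gpx1 and Gpx4, which reduce peroxides with glutathione, were both higher in DKO cells. Gpx1, which clears hydrogen peroxide in cytosol and mitochondria, was at 1760.0 against 4638 RPKM. That is a ratio of 2.64 (95% interval 2.60 to 2.67), and it ranked 10th of all genes by level in p53 KO and 8th in DKO cells. Its reads were not recovered uniquely, since 216 whole-number solutions fit its values, and the interval is that of the solution with the fewest reads. Gpx4, which reduces lipid hydroperoxides in membranes and so guards against ferroptosis, had 728 reads against 1964. It was at 45.5 against 105 RPKM, a ratio of 2.31 (95% interval 2.12 to 2.52). The ratio of Gpx1 to Gpx4 was 38.7 in p53 KO and 44.1 in DKO cells. The other listed transcript of Gpx4 was at 42.5 against 97.8 RPKM and shares most of its reads with the first. Of the remaining family, Gpx3, the plasma enzyme, was at 4.60 against 34.6 RPKM and Gpx7 at 5.88 against 4.92. Gpx2 and Gpx6 were listed at 0 in both libraries.

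Catalase lay below 0 but within 2-fold. Cat, the peroxisomal enzyme that splits hydrogen peroxide without needing a reducing co-substrate, had 2195 reads in p53 KO and 1388 in DKO cells. Its level was 50.4 against 27.3 RPKM, 1.84-fold lower (95% interval 1.72 to 1.97), with a log2 difference of -0.86 that did not reach the 2-fold rule. The ratio of Gpx1 to Cat was thus 35.0 in p53 KO and 169.9 in DKO cells, 4.86 times larger. Cat lies on chromosome 2, whose 846 measured genes had a median difference of -0.63 beside -0.24 for all genes. The 20 nearest measured genes around Cat, 10 on each side, had a median of -0.91. Of these 20, 7 were at least 2-fold lower, beside 13.5% of all genes, and 0 were higher, beside 6.60%. Relative to those neighbours Cat differed by 0.05. No other member had neighbours with a median below -0.36.

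**Figure D3:**
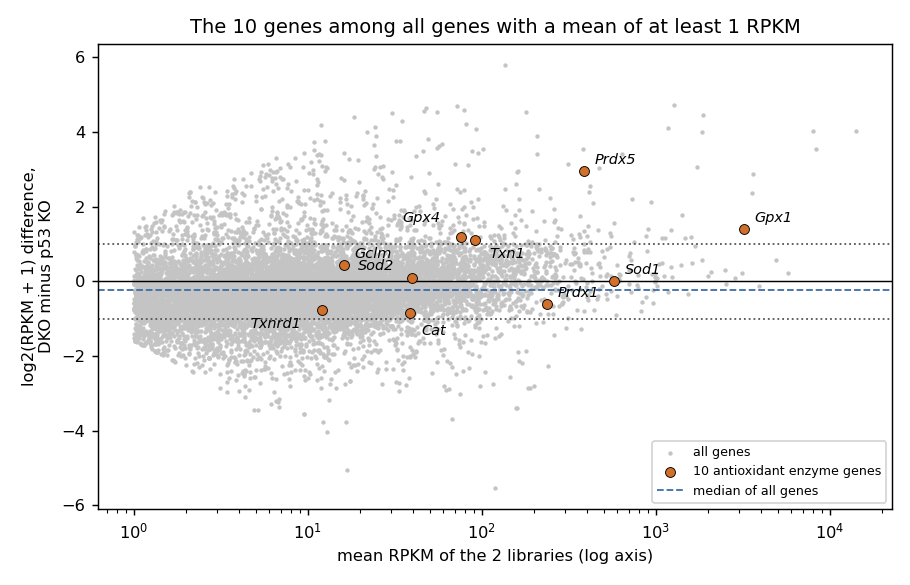
The 10 genes (filled points) among all 11356 genes that average 1 RPKM or more (grey points), by mean RPKM on a log axis and log2(RPKM + 1) difference, DKO minus p53 KO. Dotted lines mark 2-fold and the dashed line the all-gene median of -0.24; Prdx5, Gpx1, Gpx4 and Txn1 lie above the upper dotted line.

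The peroxiredoxins, thiol peroxidases that use a reactive cysteine, went apart. Prdx5, a peroxiredoxin found in mitochondria, peroxisomes and cytosol, had 1030 reads in p53 KO and 9375 in DKO cells. It was at 87.6 against 684 RPKM, a ratio of 7.81 (95% interval 7.32 to 8.33) and a log2 difference of 2.95. Only 0.678% of all measured genes had a difference that large or larger, which placed Prdx5 at rank 77 of 11356. Prdx1, an abundant cytosolic peroxiredoxin, was at 286 against 187 RPKM from 6917 and 5283 reads, or 1.53-fold lower (95% interval 1.47 to 1.58). There was 0.307 times as much Prdx5 as Prdx1 in p53 KO cells and 3.65 times as much in DKO cells. This ratio differed 11.9-fold between the libraries whatever the scaling.

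Prdx5 was also set apart from the rest of its family. Of the sum of the peroxiredoxins Prdx1 to Prdx6, Prdx5 was 8.62% in p53 KO and 43.9% in DKO cells. Prdx1 passed from 28.1% to 12.0%, and Prdx2, the main peroxiredoxin of red cells, from 27.7% to 9.82%. Prdx2 itself was at 281 against 153 RPKM, mitochondrial Prdx3 at 68.5 against 52.8 and Prdx4, of the secretory pathway, at 57.8 against 40.4 RPKM. Prdx6, which uses glutathione in place of thioredoxin, was at 236 against 442 RPKM, a difference of 0.90. Srxn1, which restores overoxidised peroxiredoxins, was at 3.31 against 2.60 RPKM. The Prdx5 gene overlaps Trmt112 on the opposite strand, and the sources used here do not give whether reads were counted by strand. Trmt112 was at 50.2 against 61.5 RPKM, a ratio of 1.23 (95% interval 1.12 to 1.34) beside the 7.81 of Prdx5.

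**Figure D4:**
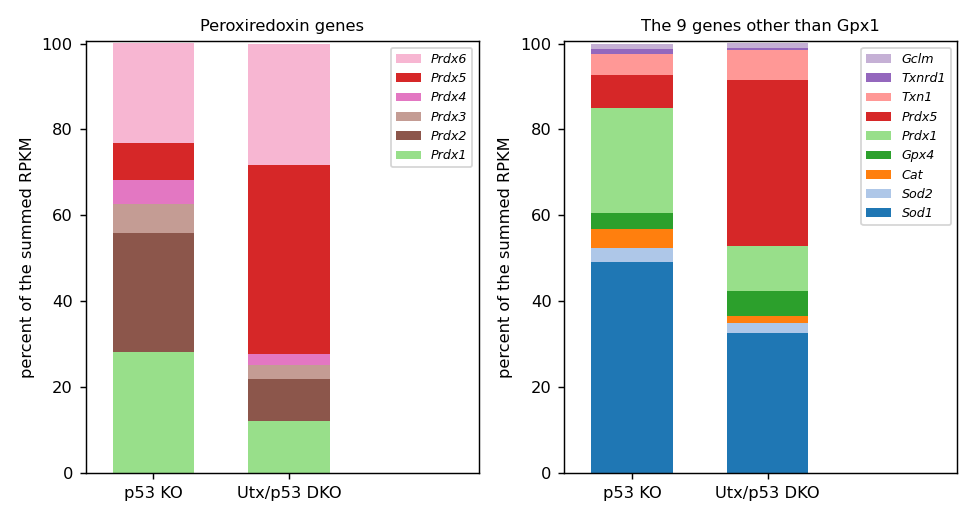
Share of each gene in the summed RPKM of the peroxiredoxin genes (left) and of the 9 genes other than Gpx1 (right), in percent, for the p53 KO and Utx/p53 DKO libraries. Prdx5 grows from 8.62% to 43.9% of the peroxiredoxins and from 7.51% to 38.6% of the 9 genes, while Prdx1 shrinks from 24.5% to 10.5% of the 9 genes.

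Thioredoxin and its reductase differed in opposite directions. Txn1, the small cytosolic dithiol protein that reduces peroxiredoxins and ribonucleotide reductase, had 1028 reads against 2599. It was at 57.2 against 124 RPKM, a ratio of 2.17 (95% interval 2.02 to 2.33). Txnrd1, the selenium enzyme that recharges it, was at 15.5 against 8.69 RPKM from 878 and 573 reads, or 1.79-fold lower (95% interval 1.61 to 1.99). The 4 listed Txnrd1 transcripts lay between 14.3 and 15.5 RPKM in p53 KO and between 8.01 and 8.69 RPKM in DKO cells, and share nearly all their reads. The ratio of Txn1 to Txnrd1 was 3.69 in p53 KO and 14.3 in DKO cells. Their mitochondrial counterparts were nearly level, with Txn2 at 179 against 170.0 and Txnrd2 at 3.26 against 3.85 RPKM. Txnip, which binds and inhibits thioredoxin, was lower, at 131 against 60.6 RPKM. In the wider thioredoxin and glutaredoxin list, 2 of 17 measured genes were at least 2-fold higher, beside 6.60% of all genes. By the same rule 2 were lower, beside 13.5%, and the median was -0.07. The 2 higher were Sepx1, a selenium enzyme that repairs oxidised methionine, at 36.1 against 288 RPKM, and glutaredoxin Glrx, at 93.8 against 263 RPKM. Lower were Txnip and Msrb2, another methionine repair enzyme, at 27.3 against 12.8 RPKM.

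For glutathione, the 3 genes of synthesis lay within 2-fold and the gene of recycling was higher. Gclm, the modifier subunit that makes glutamate-cysteine ligase more efficient, was at 13.5 against 18.6 RPKM from 339 and 546 reads, a ratio of 1.38 (95% interval 1.20 to 1.59). In the annotation its gene overlaps the pseudogene Gm6061 on the same strand and Gm17494 on the opposite strand. Gclc, the catalytic subunit, was at 9.36 against 8.79 RPKM. The ratio of Gclm to Gclc was 1.44 in p53 KO and 2.12 in DKO cells. Gss, which completes glutathione, was at 15.9 against 10.2 RPKM, a log2 difference of -0.60. Gsr, which reduces oxidised glutathione with NADPH, had 698 reads against 9994 and was at 15.3 against 188 RPKM. Its ratio was 12.3 (95% interval 11.4 to 13.3), larger than that of any of the 10 genes. Txnrd1 and Gsr, the reductases of the thioredoxin and glutathione systems, were thus nearly equal in p53 KO cells, at a ratio of 1.02, and stood at 0.0463 in DKO cells. Of the 10 measured genes of this list, 1 was at least 2-fold higher (Gsr), beside 6.60% of all genes. Ggt5, at 4.23 against 0.255 RPKM, was the 1 lower, beside 13.5% of all genes, and the median was 0.04. The cystine carrier gene Slc7a11 was at 0.247 against 0.234 RPKM, too low to be measured.

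Within 2-fold lay 13 of the 16 measured regulators and targets, beside 9078 of all 11356 measured genes. Nfe2l2, which encodes NRF2, was at 48.4 against 37.0 RPKM, its inhibitor Keap1 at 15.5 against 18.4 and the repressor Bach1 at 7.92 against 5.83 RPKM. In the list of NRF2, BACH1 and FOXO regulators and NRF2 targets, 2 of 16 measured genes were at least 2-fold higher and 1 lower. Of all genes 6.60% were higher and 13.5% lower. The list median was -0.33 beside -0.24 for all genes. Higher were Mafg, a small MAF partner of NRF2 and BACH1 (16.3 against 49.8 RPKM), and ferritin light chain Ftl1 (681 against 1753). Lower was Foxo1 (7.34 against 2.85). The target genes Nqo1 and Hmox1 were at 2.34 against 1.62 and 7.20 against 10.7 RPKM. Foxo3, a factor tied to antioxidant genes in stem cells, had 28 reads against 24 and did not reach the filter. Of the other superoxide and peroxide enzymes, 10 of 16 were measured. Among them 1 was higher (Gpx3) and 2 lower (Sesn1 and Sesn3), beside 6.60% and 13.5% of all genes, with a median of -0.31. None of these list medians has a test.

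**Figure D5:**
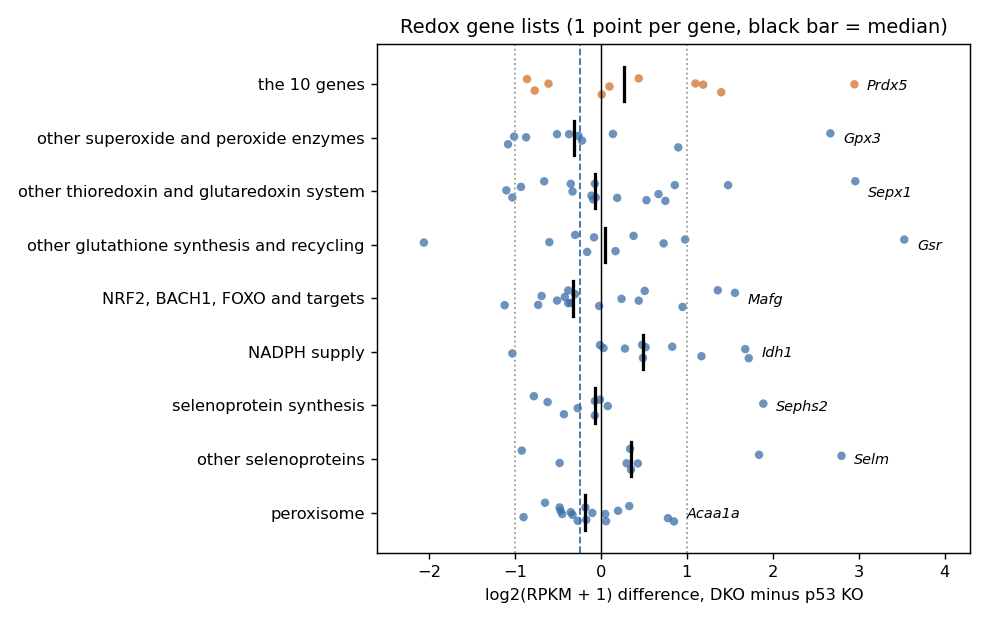
Log2(RPKM + 1) difference, DKO minus p53 KO, of every measured gene in the redox lists, with 1 point per gene and a black bar at the median of each list. The median is 0.27 for the 10 genes and -0.31 for the other superoxide and peroxide enzymes, and the highest gene of each list is named; Gsr lies highest of those shown.

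Other genes differed between the same libraries, and with 1 library per genotype it cannot be seen whether they vary with the values above. RNA of granulocyte markers was more abundant in DKO cells: 12 of 16 markers were at least 2-fold higher and 1 was lower. The shares over all genes, to set beside this and the marker counts that follow, were 6.60% higher and 13.5% lower. Summed, the 16 granulocyte markers were at 5488 against 56588 RPKM. None of these markers was at 0 in either library, and Elane, the neutrophil elastase, was at 1649 against 26714 RPKM, with 3839 against 29874 for the sum of the other 15. Of 10 measured macrophage and monocyte markers 8 were higher, with a summed level of all 12 listed of 997 against 15420.4 RPKM. Ly6c2 alone was at 919.5 against 15136 RPKM, and the other 11 summed to 77.5 against 284 RPKM. Of 12 measured erythroid markers 11 were lower, with a sum over all 16 listed of 1769 against 255 RPKM. Epor, below the filter on low values, was at 0.192 RPKM in p53 KO and 0 in DKO cells. Lymphoid markers were lower in 11 and higher in 2 of 15, with a sum over all 16 listed of 889 against 687 RPKM. Without Igll1 (166 against 563 RPKM) the other 15 summed to 724 against 124 RPKM. Mast cell and basophil markers were lower in 4 and higher in 1 of 6, with a sum over all 10 listed of 83.6 against 53 RPKM. Mcpt4, also below that filter, was at 0.177 RPKM in p53 KO and 0 in DKO cells. Stem cell and sort gate genes were lower in 8 and higher in 0 of 12. In RNA of sorted populations a change in the number of cells of a type and a change of RNA per cell cannot be told apart. The part of these markers in the differences of the antioxidant genes was not tested.

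Transcript length moved with the differences over all genes. The fifth of genes with the shortest transcripts, up to 1366 bases, had a median difference of 0.09, and the other 4 length classes had medians from -0.21 to -0.40. Of the genes with recovered lengths, the higher ones were short, at 688 (Prdx5), 937 (Gpx4) and 1051 bases (Txn1), but so was Sod1, at 648 bases. Those below 0 measured 1417 (Prdx1), 2551 (Cat) and 3310 bases (Txnrd1). Sod2, the longest at 3824 bases, and Gclm, at 1470 bases, did not follow this order, with differences of 0.10 and 0.44. Relative to its own length class Prdx5 differed by 2.86 and Txn1 by 1.01, with Gpx4 between them, Sod1 by -0.08, Prdx1 by -0.39, Txnrd1 by -0.45, Cat by -0.56, Sod2 by 0.43 and Gclm by 0.65. Genes of similar abundance gave another reference, since the class that holds Gpx1, Sod1, Prdx1 and Prdx5 had a median of 0.28. Relative to it Gpx1 differed by 1.12, Prdx5 by 2.67, Sod1 by -0.27 and Prdx1 by -0.89.

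The authors' deposited table gives its own fold changes, which use the gfold constants and lie 0.60 higher on the log2 scale than the RPKM ratios. In the authors' deposited table the log2 fold change was 3.57 for Prdx5, 2.00 for Gpx1, 1.81 for Gpx4, 1.72 for Txn1 and 1.07 for Gclm. For Sod2 and Sod1 the authors' deposited table gives 0.71 and 0.61, and for Prdx1, Txnrd1 and Cat it gives -0.01, -0.23 and -0.28. The GFOLD value, a log2 fold change shrunk toward 0 for uncertainty, was positive in the authors' deposited table for 7 of the 10 genes, beside 54.5% of the measured genes. It was negative there for 2, Cat (-0.17) and Txnrd1 (-0.06), beside 22.9%, and 0 for Prdx1.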

How the data were processed

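RNA of sorted LSK cells was sequenced from 2 libraries, 1 per genotype, assigned by the labels. Per the labels' protocols 50 ng of total RNA was copied with a SMART kit after oligo-dT selection and read at 100 bases from both ends. The submitters' processing notes list mm9, TopHat2 2.1.0 and bcl2fastq 1.8.4. The authors deposited RPKM values, log2 fold changes, log2-scaled GFOLD values and q-values (E-FDR, all 1) for 28344 transcripts, which gfold 1.1.4 wrote, per the file headers. The header names WT-LSK first and KO-LSK second, and the RPKM columns were assigned by that. The sources used here do not give how multiply mapped and antisense reads were counted.

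Genes were compared on log2(RPKM + 1), using 1 transcript per symbol and a mean of at least 1 RPKM, with Python 3.11.15. No test was made. Whole reads came from a search for the whole-number transcript length that fits both RPKM values and the authors' log2 value to their 6 printed digits. It gave 1 solution for 96.3% of 24644 transcripts with reads and for 9 of the 10 genes. Ratios carry exact (Clopper-Pearson) and levels exact Poisson 95% intervals, which cover counting error only, since PCR copies are not independent molecules. The read search and the 2-fold rule were tested on simulated data. Chromosome order came from RefSeq, which placed 97.6% of the measured genes by accession, and overlapping genes from GENCODE M21.

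The 10 genes and the gene lists were chosen with earlier results of these data known. Named were the 10 genes, both targeted genes, 10 partner genes set by name and up to 4 genes per list with the largest absolute difference. The others, such as Kit, Ly6a, Ccs, Gss, Nqo1, Hmox1, Slc7a11, Gpx2, Gpx6, Gpx7, Prdx4, Srxn1, Sod3, Txnrd2, Igll1, Trmt112 and Scaf4, were named after their values were seen. Alternatives were other pseudocounts, filters, scalings, fold rules, transcripts and reference genes.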

Additional observations from a re-analysis of the deposited data

How the results depend on the processing

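No paired analysis was possible because each genotype has 1 library. Prdx5, Gpx1, Gpx4, Txn1 and Gclm were above 0 and Prdx1 and Txnrd1 below 0 under every alternative run for them. Prdx5 ranged from 2.58 to 3.54, Gpx1 from 1.02 to 2.00, Gpx4 from 0.82 to 1.78, Txn1 from 0.73 to 1.69 and Gclm from 0.09 to 0.99. Prdx1 ranged from -0.98 to -0.01, Txnrd1 from -1.11 to -0.21 and Cat from -1.22 to 0.05. Sod1 changed sign under 4 of 15 alternatives, Sod2 under 2 and Cat under 1, the reference of its neighbours. After scaling to equal sums of RPKM 2 of the 10 genes were higher and 2 lower, and their median was -0.09. Without the 10 most abundant genes of each library in those sums, 3 were higher and 0 lower. A 3-fold rule left 1 higher, and a 1.5-fold rule gave 3 lower. The median of the 10 was 0.45 after centring, 0.42 with equal upper quartiles and 0.84 with the gfold constants, but relative to all genes it stayed between 0.38 and 0.57. Over all genes 750 were higher and 1528 lower (32.9% of the called genes higher). With the gfold constants 1729 were higher and 597 lower (74.3%), with equal sums 517 and 2818 (15.5%), with a pseudocount of 5 426 and 476 (47.2%), after centring 1012 and 1086 (48.2%) and with equal upper quartiles 943 and 1225 (43.5%). A 1.5-fold rule gave 1481 and 3363, a 3-fold rule 369 and 493, and a mean of at least 5 RPKM left 835 lower. The all-gene median shifted by 0.50 with the gfold constants, -0.32 with equal sums, 0.18 after centring and 0.13 with upper quartiles. The length-class reference was chosen after seeing the data. Depth was not the limit for the 10 genes, which had at least 339 reads in the p53 KO library where reads were recovered.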

Other observations

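Genes that supply NADPH, the electron source of both reductases, were mostly above the all-gene median. Their list was chosen with earlier results of these data known. Of 11 measured, 3 were at least 2-fold higher in the DKO library, beside 6.60% of all genes. By the same rule 1 was lower, beside 13.5%, and the median was 0.49. Higher were the pentose phosphate enzymes G6pdx (30.2 against 69.2 RPKM) and Pgd (42.0 against 137) and cytosolic isocitrate dehydrogenase Idh1 (33.4 against 112). The mitochondrial enzyme Idh2 was lower, at 39.5 against 18.8 RPKM.

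Gpx1, Gpx4 and Txnrd1 contain selenocysteine. Of the 9 measured genes for its synthesis and insertion 1 was at least 2-fold higher and 0 lower, beside 6.60% and 13.5% of all genes. Their median was -0.07, with Eefsec lowest at 11.1 against 6.07 RPKM. The higher one was Sephs2, which makes the selenium donor and is itself a selenoprotein, at 18.0 against 69.6 RPKM. Of 8 other selenoprotein genes measured, 2 were at least 2-fold higher, beside 6.60% of all genes. They were Selm (9.13 against 69.4 RPKM) and the deiodinase gene Dio2 (2.60 against 11.9 RPKM). The plasma selenoprotein gene Sepp1 was at 127 against 66.7 RPKM. The median of these 8, which do not include Txnrd1, was 0.35. Catalase resides in peroxisomes. Of 17 measured peroxisome genes 0 were at least 2-fold higher or lower, beside 6.60% and 13.5% of all genes. Their median was -0.18, with a range from -0.90 for Pex16 to 0.85 for Acaa1a.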
